A study of Homo sapiens with 6 samples.

Results

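The small RNA silencing machinery was followed through 10 genes, the 4 Argonautes AGO1, AGO2, AGO3 and AGO4 together with DICER1, DROSHA, DGCR8, TARBP2, XPO5 and TNRC6A. They were picked by gene symbol, and all 10 were found among the 56303 genes of the count table. RNA-seq had been run on T24 cells, an established bladder carcinoma line, to look for the genes and pathways that move when the F-box gene FBXL6 is targeted by RNA interference. The control group (siNC, genotype label WT, n = 3) had received a control siRNA, and the other group (siFBXL6, genotype label FBXL6 knockdown, n = 3) siRNA against FBXL6. The numbers in the labels were read as replicate numbers, but they could also name different siRNAs. In that case the spread within the siFBXL6 label would include a difference between siRNAs. In both groups the labels hold more numbers than the paper's methods name siRNAs. RNA was taken 48 h after transfection in both groups, and all 6 libraries were made with a stranded mRNA kit and carry the same batch label. Libraries labelled siNC held 58646515, 60967902 and 56814946 counts, and those labelled siFBXL6 held 60968158, 60898556 and 60754015. Nothing in the labels says that replicates came from separate cultures, so p-values measure only the spread between these samples, which may be technical.

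Small regulatory RNAs are made in steps. In the nucleus, DROSHA and its RNA-binding partner DGCR8 crop the hairpin out of a primary transcript, and XPO5 carries the hairpin to the cytoplasm, where DICER1 with TARBP2 cuts it to a short duplex. An Argonaute keeps a single strand of that duplex as its guide, and TNRC6A, a GW182 protein, links the loaded Argonaute to the enzymes that shorten poly(A) tails. A transfected siRNA duplex enters at the Argonaute step, and both groups of the experiment had received such a duplex. The libraries were built from mRNA, so the values below are transcript levels of the machinery's genes, and the small RNAs themselves were not measured.

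FBXL6, the gene that the siRNA targets, was read first because it checks the labels. It stood at 6.19, 6.70 and 6.93 CPM (counts scaled to library size, with TMM factors) in the libraries labelled siNC and at 6.58, 5.70 and 5.81 CPM in those labelled siFBXL6. The groups overlapped, since siFBXL6 replicate 1 lay above siNC replicate 1. The log2 fold change was -0.13 (SE 0.0875, 95% interval -0.31 to 0.0459, adjusted p = 0.247 in edgeR's quasi-likelihood test with Benjamini-Hochberg adjustment). Over all alternatives it ran from -0.20 without siFBXL6 replicate 1 (adjusted p = 0.112, edgeR) to -0.0921 without siFBXL6 replicate 2 (0.521), always short of the threshold. A lowering of the target was therefore not detected here. By qRT-PCR and Western blot, the paper reports FBXL6 knockdown in T24 cells with each of its siRNAs against the gene. Which of these the sequenced cells received is not stated in its methods. Every direction given here is that of the labels: higher or lower in the libraries labelled siFBXL6. An exchange of the labels would turn each of them and was not tested. On protein blots after FBXL6 knockdown, the paper reports less N-cadherin and vimentin and more E-cadherin. By label, the transcripts of CDH2 (log2 fold change -0.59) and CDH1 (0.16) ran the same way, and that of VIM (0.70) ran the other way. Of the usual reference genes, ACTB stood at 1160, 1150 and 1200 CPM under the siNC label and at 1200, 1150 and 1160 CPM under the siFBXL6 label, a log2 fold change of 0.0002 whose sign turned under other scalings and in some fits that left out a library. GAPDH stood at 195, 185 and 185 CPM against 661, 655 and 653 CPM, a fold of 3.49 with no overlap.

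All 10 silencing genes passed the filter on low counts. At an adjusted p under 0.05, 6 of the 10 (60.0%) differed between the labelled groups, where 40.2% of the 21298 tested genes did. Among the 9887 genes whose mean reached 10 CPM, which include 9 of the 10, 59.6% passed the same threshold. Of these 9 silencing genes 6 differed, a share not far from that of genes of like abundance. AGO2 and AGO4 were higher in the libraries labelled siFBXL6, against 20.5% of all tested genes. AGO1, AGO3, DROSHA and TNRC6A were lower, against 19.8% of all tested genes. The 2 groups had no overlap in CPM for 6 of the 10, namely AGO1, AGO2, AGO4, DROSHA, XPO5 and TNRC6A, while 48.2% of all tested genes showed no overlap. Neither this share nor those by direction were taken among genes reaching 10 CPM. None of the 10 changed by as much as 2-fold. Their median log2 fold change was -0.059, beside -0.007 over all tested genes.

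**Figure D1:**
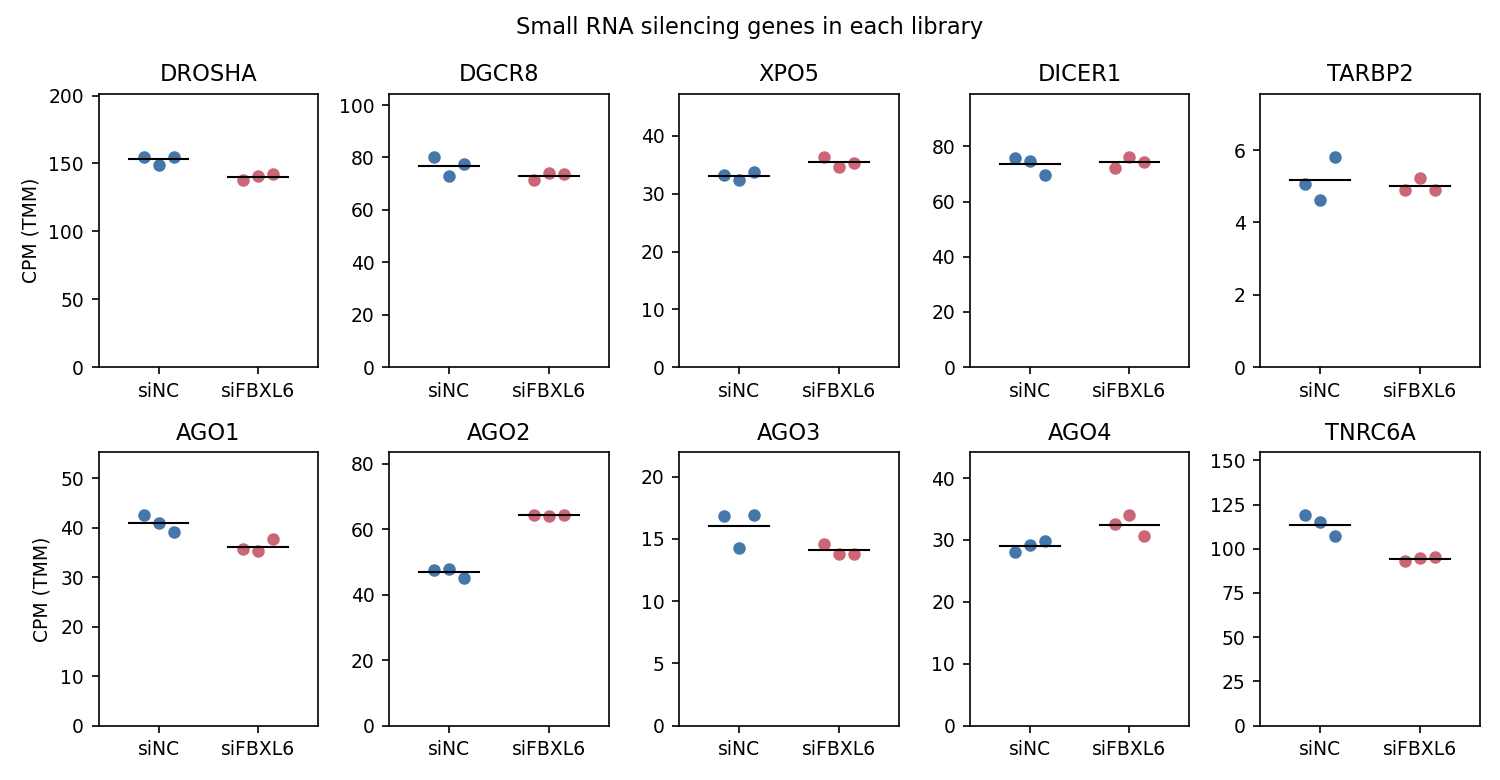
CPM of the 10 silencing genes in each of the 6 libraries, 1 panel a gene with its axis starting at 0; points are libraries and lines group means (n = 3 a group). AGO2 sits between 45.2 and 48 CPM under the siNC label and between 64.1 and 64.3 CPM under the siFBXL6 label.

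Levels were compared between genes per length, as RPKM, which is CPM divided by the summed exon length in kilobases. In the libraries labelled siNC the order was DROSHA (mean RPKM 19.6 ± 0.451, SD, n = 3), DGCR8 (10.5 ± 0.501), TNRC6A (8.79 ± 0.486), DICER1 (5.98 ± 0.264), AGO4 (3.99 ± 0.124), XPO5 (3.88 ± 0.0814), AGO2 (2.96 ± 0.0937), AGO1 (2.94 ± 0.124), TARBP2 (1.26 ± 0.147) and AGO3 (0.756 ± 0.0701). The nuclear cropping genes thus led the order, and AGO3 closed it. Neighbours overlapped between replicates for AGO4 and XPO5 and for AGO2 and AGO1, and the other neighbours did not overlap. The same order of means held under the siFBXL6 label, where AGO2 (mean RPKM 4.06 ± 0.00748) now overlapped XPO5 (4.16 ± 0.11) and no longer overlapped AGO1 (2.61 ± 0.0906). Summed exon length runs from 4090 bases for TARBP2 to 21157 for AGO3 and counts every annotated exon, so a gene with many alternative exons reads low on this scale.

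DROSHA, the RNase III enzyme of the nuclear Microprocessor, lies on the minus strand at chr5:31400497-31532196 (GRCh38). It stood at 155, 149 and 155 CPM in the libraries labelled siNC and at 138, 141 and 142 CPM in those labelled siFBXL6. All siFBXL6-labelled libraries lay below all siNC-labelled ones. The log2 fold change was -0.12 (SE 0.0308, edgeR's quasi-likelihood test, Benjamini-Hochberg adjusted p = 0.00191), a difference of -7.96% that was larger than the spread of either group. At 8335 to 9174 counts a library, its replicates varied by 2.30% and 1.62% (coefficient of variation), where counting alone gives 1.05% and 1.09%.

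DGCR8, which binds the hairpin for DROSHA, lies at chr22:20080232-20111877 on the plus strand. It stood at 80.3, 73.0 and 77.4 CPM against 71.3, 74.0 and 73.8 CPM. The groups overlapped because siNC replicate 2 was as low as the libraries labelled siFBXL6. Its log2 fold change was -0.075 (95% interval -0.15 to -0.0035), and it did not pass the threshold after adjustment (adjusted p = 0.0896, edgeR). Without siNC replicate 1 the log2 fold change shrank to -0.0432 (adjusted p = 0.329, edgeR). Without siNC replicate 2 it was -0.11 and the adjusted p 0.0173, and scaling by library size alone (adjusted p = 0.0219) or by the upper quartile (0.0318) also took it past 0.05. The ratio of DROSHA to DGCR8 counts, which needs no scaling, was 1.93, 2.03 and 2.00 under the siNC label and 1.93, 1.91 and 1.93 under the siFBXL6 label, so the ratios overlapped (exact two-sided permutation p = 0.3). Of the exon bases of DGCR8, 7.22% are shared with genes on the opposite strand. The strand setting of the counting is not given in the sources used here, so reads from those bases cannot be assigned to either strand. In the other 9 genes the share with opposite-strand genes was at most 2.85%, in AGO1, and AGO2 shared 0.297% with a gene on its own strand.

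DGCR8 and DICER1 also carry microRNA hairpins of their own, 3 microRNA genes with 5 mature products in RefSeq (GRCh38.p14), while the other 8 genes carry none on their own strand. These sequences are shown because they are products that the machinery cuts from transcripts of its own genes. The mature products of MIR3618 (chr22:20085797-20085818) and MIR1306 (chr22:20086072-20086093 for the 5p arm and chr22:20086112-20086129 for the 3p arm) lie within DGCR8 exons on the plus strand. Those of MIR3173 (chr14:95137961-95137982 for the 5p arm and chr14:95137923-95137944 for the 3p arm) lie in an intron of DICER1 on the minus strand. Capitals mark the seed, bases 2 to 8, and no seed is shared.
hsa-miR-3618: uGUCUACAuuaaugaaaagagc
hsa-miR-1306-5p: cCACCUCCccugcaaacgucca
hsa-miR-1306-3p: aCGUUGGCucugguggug
hsa-miR-3173-5p: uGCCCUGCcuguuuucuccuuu
hsa-miR-3173-3p: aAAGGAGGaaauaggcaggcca

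XPO5, the export receptor of the precursor hairpin, lies at chr6:43522330-43576075 on the minus strand. It stood at 33.3, 32.3 and 33.7 CPM in the libraries labelled siNC and at 36.4, 34.6 and 35.3 CPM in those labelled siFBXL6. Every siFBXL6-labelled library was above every siNC-labelled one. The log2 fold change of 0.099 (95% interval 0.014 to 0.18) nevertheless missed the threshold (adjusted p = 0.0562, edgeR), and it passed with a filter of 10 counts in every library (adjusted p = 0.0498), over a range of 0.0498 to 0.206 in all alternatives.

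DICER1, the cytoplasmic dicing enzyme, lies at chr14:95086228-95158010 on the minus strand. It stood at 75.9, 74.7 and 69.8 CPM against 72.3, 76.3 and 74.2 CPM. The siFBXL6-labelled values fell inside the range of the siNC-labelled ones except for replicate 2, which was the highest of the 6. DICER1 had a log2 fold change of 0.015 (95% interval -0.056 to 0.086, adjusted p = 0.777, edgeR), with both ends of the interval nearer to 0 than the difference of DROSHA. Its sign turned without siNC replicate 3 (-0.0205) or siFBXL6 replicate 2 (-0.0043), and with upper-quartile scaling or library size alone. TARBP2, which binds the RNA duplex beside DICER1, lies at chr12:53500921-53506431 on the plus strand and was the least counted member, with 286 to 334 counts a library. It stood at 5.06, 4.63 and 5.82 CPM against 4.89, 5.22 and 4.91 CPM, with all siFBXL6-labelled values inside the siNC-labelled range. Its log2 fold change was -0.044 with a wide 95% interval of -0.25 to 0.16 (adjusted p = 0.767, edgeR). A change of the size seen for AGO1 could therefore not have been told from none in these libraries. The log2 fold change of TARBP2 was -0.1189 without siNC replicate 2 and turned to 0.0481 without siNC replicate 3.

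AGO2, the Argonaute whose own nuclease activity cuts a fully matched target, lies at chr8:140520156-140635619 on the minus strand and gave the largest difference among the 10 genes. It stood at 47.5, 48 and 45.2 CPM in the libraries labelled siNC and at 64.3, 64.1 and 64.3 CPM in those labelled siFBXL6. The groups lay far apart, and the libraries labelled siFBXL6 were nearly equal. Their coefficient of variation was 0.184%, less than the 1.61% that counting alone gives at this depth, and that of the siNC-labelled libraries was 3.17%. AGO2 had a log2 fold change of 0.45 (SE 0.0356, 95% interval 0.38 to 0.53, Benjamini-Hochberg adjusted p = 1.41e-12 in edgeR's quasi-likelihood test), a difference of 36.9%. A larger absolute log2 fold change was seen for 17.2% of all tested genes and for 7.44% of those whose mean reached 10 CPM. The call held when any library was left out, with log2 fold changes between 0.43 and 0.47 over all alternatives.

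AGO1 lies at chr1:35869808-35930528 on the plus strand. It stood at 42.5, 41.0 and 39.1 CPM under the siNC label and at 35.7, 35.2 and 37.6 CPM under the siFBXL6 label. The groups did not overlap, and the nearest libraries, replicate 3 of each, were 39.1 and 37.6 CPM. Its log2 fold change was -0.18 (SE 0.0418, adjusted p = 0.000839, edgeR's quasi-likelihood test), a difference of -11.5%.

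AGO3 lies at chr1:35930718-36072500 on the plus strand and was the lowest member per length. It stood at 16.8, 14.3 and 16.9 CPM against 14.6, 13.8 and 13.8 CPM. The groups overlapped, since siNC replicate 2 lay below siFBXL6 replicate 1. The log2 fold change was -0.18 (SE 0.0638, adjusted p = 0.0197, edgeR), but the call was lost without siNC replicate 1 (adjusted p = 0.0807), siNC replicate 3 (0.112), siFBXL6 replicate 2 (0.0733) or siFBXL6 replicate 3 (0.075), over a range of 0.00186 to 0.112 in all alternatives.

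AGO4 lies at chr1:35808172-35857890 on the plus strand. It stood at 28.0, 29.1 and 29.8 CPM against 32.5, 34.0 and 30.7 CPM. The groups did not overlap, with siNC replicate 3 and siFBXL6 replicate 3 nearest to each other. Its log2 fold change was 0.16 (SE 0.0456, adjusted p = 0.00455, edgeR), a difference of 11.8%. The call was lost without siFBXL6 replicate 2, where the log2 fold change was 0.13 and the adjusted p 0.0574, over a range of 0.00242 to 0.0574 in all alternatives.

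**Figure D2:**
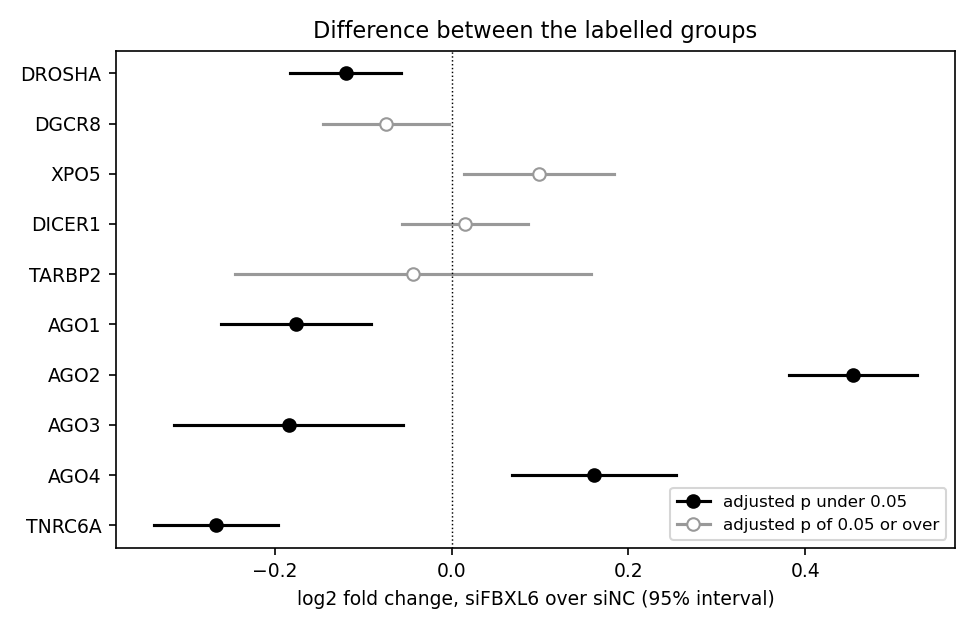
Log2 fold change of each silencing gene, libraries labelled siFBXL6 over those labelled siNC, with bars for the 95% interval (n = 3 a group); filled points passed an adjusted p of 0.05. AGO2 stands apart at 0.45, and the other 9 genes lie between -0.27 and 0.16.

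AGO4, AGO1 and AGO3 stand head to tail on chromosome 1, in that order and on the same strand, over 264329 bases, with 11917 bases between AGO4 and AGO1 and 189 between AGO1 and AGO3. AGO2 is on another chromosome. The ratio of AGO3 to AGO1 counts was 0.394, 0.348 and 0.433 under the siNC label and 0.408, 0.393 and 0.366 under the siFBXL6 label. The ratios of these adjacent genes overlapped (exact two-sided permutation p = 0.9, in a design that allows no p under 0.1). The ratio of AGO4 to AGO1 counts was 0.659, 0.709 and 0.763 against 0.909, 0.966 and 0.818, with no overlap (exact two-sided permutation p = 0.1, the smallest that 3 against 3 samples can give). AGO2 to AGO1 counts gave 1.12, 1.17 and 1.16 against 1.80, 1.82 and 1.71, also with no overlap and the same exact permutation p of 0.1. Such ratios need no library scaling and do not change with it.

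The bases before a RefSeq start of each of the 3 neighbours are shown because the genes share a strand and a locus while AGO4 moved in the opposite direction to AGO1 and AGO3. They were taken from RefSeq (GRCh38.p14), at chr1:35807766-35808015 for AGO4, chr1:35882959-35883208 for AGO1 and chr1:35930855-35931077 for AGO3 (plus strand). RefSeq starts are not those of the count table used for the coordinates and gaps above: the AGO4 stretch lies before the table's gene, and those of AGO1 and AGO3 lie inside it, each ending before the first exon base of the table that falls in its window. Capitals mark GGGCGG or its reverse complement, the GC box. In 250 bases each, AGO4 has 0 matches and AGO1 has 2, and the shorter AGO3 stretch of 223 bases has 1. The background has windows of 250 bases too: 42.6% of the 35116 RefSeq windows before a start hold at least 1 match. CCAAT, searched on both strands too, was found once in the AGO1 stretch and not in the others (32.0% of all windows), and TATAAA in none of the 3 (10.7% of all windows). G and C make up 66.4% of the AGO4 stretch, 71.6% of that of AGO1 and 78.9% of that of AGO3. A match or its lack describes these letters alone.
AGO4: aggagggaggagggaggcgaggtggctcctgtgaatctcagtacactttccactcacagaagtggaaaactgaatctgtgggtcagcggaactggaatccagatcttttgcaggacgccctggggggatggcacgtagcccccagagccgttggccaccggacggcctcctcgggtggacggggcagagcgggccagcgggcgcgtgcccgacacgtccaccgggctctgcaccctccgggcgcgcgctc
AGO1: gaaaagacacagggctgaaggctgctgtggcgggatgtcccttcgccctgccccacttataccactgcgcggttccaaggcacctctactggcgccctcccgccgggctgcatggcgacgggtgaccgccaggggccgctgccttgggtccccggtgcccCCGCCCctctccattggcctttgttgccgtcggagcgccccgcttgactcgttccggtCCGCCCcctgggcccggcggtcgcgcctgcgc
AGO3: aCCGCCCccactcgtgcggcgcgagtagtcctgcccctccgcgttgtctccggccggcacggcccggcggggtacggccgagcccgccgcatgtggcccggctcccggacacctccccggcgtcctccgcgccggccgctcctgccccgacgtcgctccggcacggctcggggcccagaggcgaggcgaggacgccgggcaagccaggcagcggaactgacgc

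The makeup of the Argonaute transcripts was read as shares of their summed RPKM, with exact tests that cannot fall below p = 0.1. The summed RPKM of the 4 genes was 10.7, 10.7 and 10.6 in the libraries labelled siNC and 11.8, 11.9 and 11.6 in those labelled siFBXL6. AGO2 made up 28.0%, 28.4% and 27.0% of that sum against 34.4%, 34.0% and 34.8%, a difference of 6.61 percentage points with no overlap (exact two-sided permutation p = 0.1, the smallest possible). AGO1 made up 28.6%, 27.7% and 26.6% against 21.8%, 21.3% and 23.2%. Per length, AGO4 held the largest share in every library, at 37.5% ± 1.4 (SD, n = 3) and 37.8% ± 1.47, and its groups overlapped. AGO3 held 7.10% ± 0.669 and 5.64% ± 0.182. Under the siNC label AGO1 and AGO2 were thus about level, and under the siFBXL6 label AGO2 exceeded AGO1 in all 3 libraries. Shares depend on the exon length used: by counts not divided by length, AGO2 and not AGO4 was the largest in every library (2776 against 1640 counts in siNC replicate 1), and the AGO2 difference was 8.41 percentage points.

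**Figure D3:**
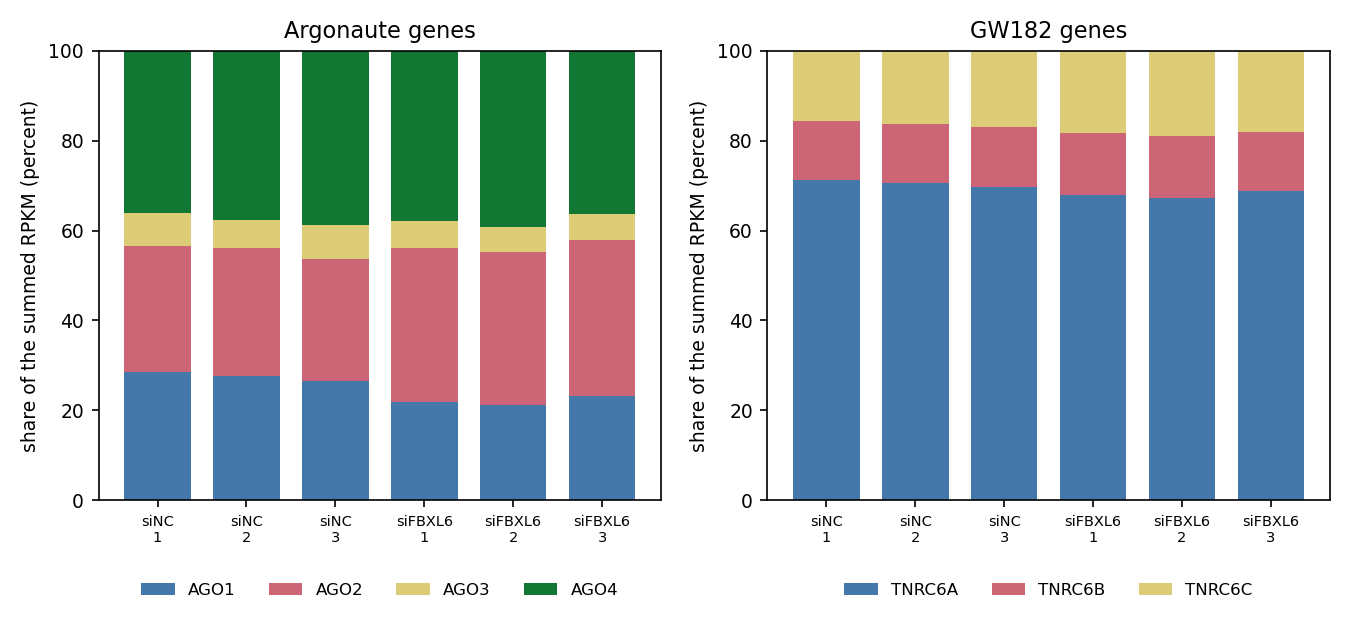
Stacked bars give the share of the summed RPKM, in percent, that each Argonaute gene (left) and each GW182 gene (right) held in each of the 6 libraries. The AGO2 part widens from a mean of 27.8% to 34.4%, and the TNRC6A part shrinks from a mean of 70.5% to 68.0%.

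TNRC6A, the GW182 scaffold that Argonautes bind, lies at chr16:24610209-24827632 on the plus strand. It stood at 119, 115 and 107 CPM in the libraries labelled siNC and at 93.2, 94.9 and 95.2 CPM in those labelled siFBXL6. The groups did not overlap, and the siNC-labelled values were more spread (5.53% against 1.14%, coefficient of variation). TNRC6A had a log2 fold change of -0.27 (SE 0.0344, Benjamini-Hochberg adjusted p = 9.21e-08 in edgeR's quasi-likelihood test), a difference of -16.9%. Its paralog TNRC6B stood at 33.8, 33.4 and 31.8 CPM against 29.6, 30.4 and 28.3 CPM and was lower too (log2 fold change -0.17, adjusted p = 0.00279, edgeR). TNRC6C, at 22.6, 22.8 and 22.3 CPM against 21.4, 22.9 and 21.4 CPM, overlapped between groups and did not pass (adjusted p = 0.523, edgeR). The summed RPKM of the 3 GW182 genes was 12.9, 12.7 and 11.9 under the siNC label and 10.6, 10.9 and 10.7 under the siFBXL6 label, while that of the Argonautes was higher under the siFBXL6 label. TNRC6A held 71.2%, 70.6% and 69.6% of the GW182 sum against 67.9%, 67.2% and 68.8%, a difference of -2.47 percentage points with no overlap (exact two-sided permutation p = 0.1).

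**Figure D4:**
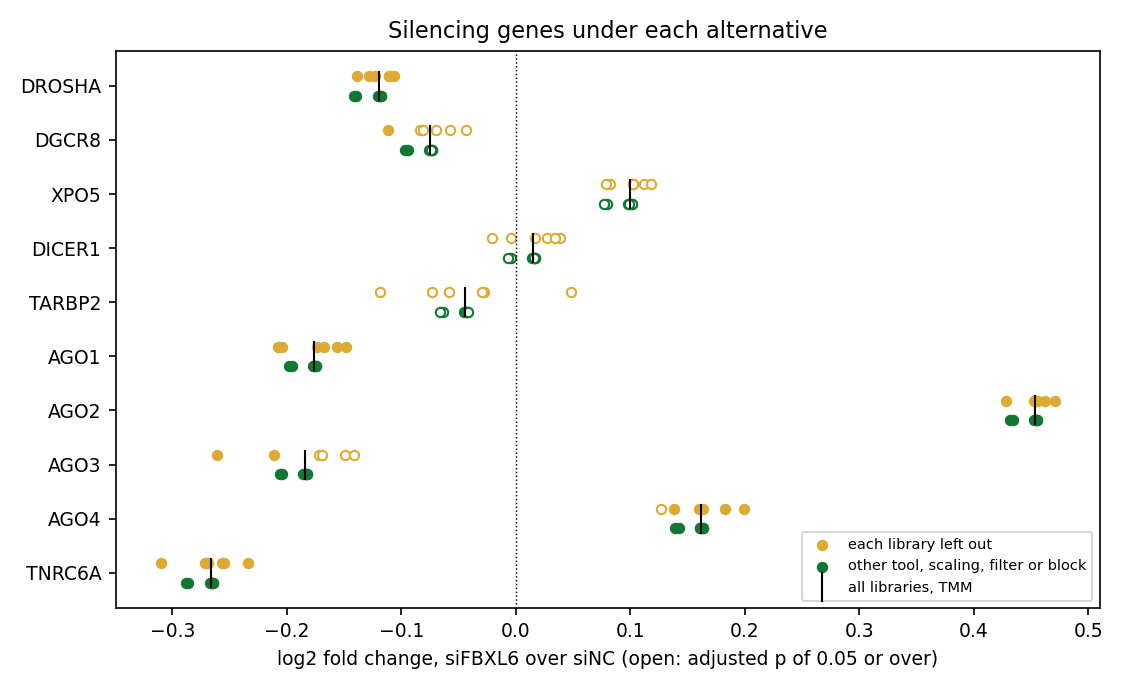
Log2 fold change of each silencing gene (siFBXL6 over siNC labels) under each alternative; yellow points leave out 1 library each, green points use another tool, scaling, filter or the replicate block, and open points have an adjusted p of 0.05 or over. AGO2, TNRC6A, AGO1 and DROSHA stay filled throughout, and AGO3 turns open in 4 of the 6 fits that leave out a library.

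Across the 6 libraries, the 5 genes whose log2 CPM followed AGO2 most closely among 9886 whose mean reached 10 CPM included FMNL2 (Pearson r = 0.99999), RAB8B (0.99957), ST3GAL1 (0.99954) and PLEKHM1 (0.99925). These 4 were higher under the siFBXL6 label, with log2 fold changes from 0.22 for RAB8B to 0.50 for PLEKHM1. With 6 points in a pair of tight groups, such coefficients describe a step between the labels and little else, and they are given with no test.

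Genes that act beside the machinery were read from lists of each step. In nuclear processing and export, 4 of 16 tested genes were higher and 7 lower, with a median log2 fold change of -0.072. ADAR, the editor of double-stranded RNA, was higher (log2 fold change 0.34), while SRRT (-0.35), a cap-binding partner, and the splicing factor SRSF3 (-0.31) were lower. In dicing and loading, 6 of 14 were higher and 2 lower (median 0.05), with the HSP90 cochaperones FKBP4 (0.27) and AHSA1 (0.22) higher and FKBP5 (-0.17) lower. Among other GW182 and deadenylation genes, 4 of 17 were higher and 6 lower (median -0.044), and the 3 with the smallest adjusted p, CNOT6 (0.22), PABPC1 (0.14) and PABPC4 (0.16), were all higher. In decapping and repression, 3 of 18 were higher and 6 lower (median -0.02), with the decapping enzyme DCP2 (0.38) higher and its cofactor DCP1B (-0.51) and LSM14A (-0.18) lower. With upper-quartile scaling or library size alone, the split in decapping and repression was 2 higher and 7 lower. The shares called in these 4 lists were 68.8%, 57.1%, 58.8% and 50%, in the order given, beside 40.2% of all tested genes and 59.6% of those reaching 10 CPM. No gene of the 4 lists reached a 2-fold change.

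Of 17 tested regulators and partners of Argonaute, 7 were higher and 6 lower (median -0.017), led by the helicase MOV10 (-0.36), PPP6R2 (-0.32) and SND1 (0.24). With upper-quartile scaling or library size alone, 3 were higher and 6 lower, and the total fell from 13 to 8 without siFBXL6 replicate 2 and at the stricter threshold of 0.01. The 76.5% called with all libraries thus depended on the setting, beside 40.2% of all tested genes and 59.6% of those reaching 10 CPM. For the enzymes that modify or degrade small RNAs, 5 of 14 were higher and 3 lower (median 0). The uridylyltransferases TUT7 (listed as ZCCHC6, log2 fold change 0.26) and TUT4 (listed as ZCCHC11, -0.21) moved in opposite directions, while the nuclease PARN was at 0.21. The share called was 57.1%, near the 59.6% of genes reaching 10 CPM. The germline PIWI genes were nearly silent: 11 of 15 lay under 1 CPM in both groups, and TDRKH (49.2 and 46.5 CPM) and PLD6 (4.93 and 5.80 CPM), which were not called, had means over 1 CPM. TDRD6 (1.06 and 0.58 CPM) was lower and PIWIL4 (0.607 and 1.02 CPM) higher, and the PIWIL4 call was lost without siNC replicate 1 (adjusted p = 0.0789), siNC replicate 3 (0.18), siFBXL6 replicate 1 (0.229) or siFBXL6 replicate 2 (0.0711), and with DESeq2 on all libraries (0.0599), over a range of 0.00378 to 0.229 in all alternatives. Its log2 fold change of 0.73 rose to 1.15 without siNC replicate 2.

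Sensors of double-stranded RNA were read because both groups had received an RNA duplex. Of 14 tested genes 1 was higher and 8 were lower, with a median log2 fold change of -0.22. That is 64.3% called, beside 40.2% of all tested genes (19.8% lower) and 59.6% of those reaching 10 CPM. RIG-I (listed as DDX58) stood at 70.1, 68.2 and 70.4 CPM under the siNC label and at 47.1, 50.6 and 47.6 CPM under the siFBXL6 label, a log2 fold change of -0.52 with no overlap. OAS3 (-0.45) and OAS1 (-0.40), which make the activator of RNase L, were also lower.

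**Figure D5:**
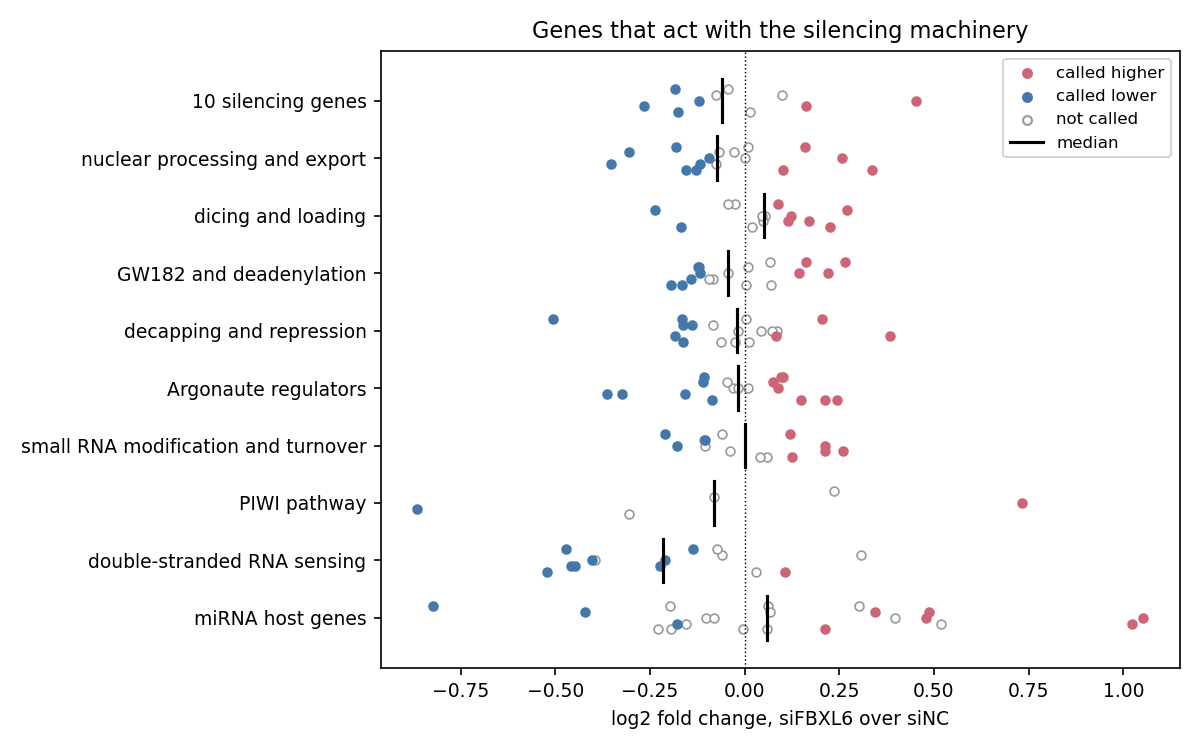
Log2 fold change (siFBXL6 over siNC labels) of every tested gene in the 10 silencing genes, the lists of genes that act beside them and the microRNA host genes; filled points passed an adjusted p of 0.05 and black lines are medians. The list medians lie between -0.22 for double-stranded RNA sensing and 0.06 for microRNA host genes.

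MicroRNA host genes, whose primary transcripts DROSHA works on, were read by their exon counts, without hosts of other names such as DGCR8 and DICER1. The set was the 50 symbols that start with MIR and end in HG. Of the 22 that were tested, 6 were higher and 3 lower, a share of 40.9% beside the 40.2% of all tested genes. MIR205HG stood at 52.6, 49.9 and 54.8 CPM under the siNC label and at 73.5, 69.9 and 76.0 CPM under the siFBXL6 label, a log2 fold change of 0.48. MIR4435-2HG (0.49) and MIR3142HG (1.05, at 1.13 and 2.34 CPM) were higher as well. The level of a host transcript is not that of its mature microRNA. The mature sequences inside these 3 genes (RefSeq, GRCh38.p14) are shown, with the seed in capitals, as the small RNAs that the host transcripts with the smallest adjusted p encode. Those of MIR205 (chr1:209432166-209432187 for the 5p arm and chr1:209432203-209432223 for the 3p arm, plus strand) and MIR146A (chr5:160485372-160485393 and chr5:160485408-160485429, plus strand) lie in exons of their hosts, and those of MIR4435-2 (chr2:111321061-111321082, minus strand) and MIR3142 (chr5:160474492-160474513, plus strand) in introns. No seed is shared among them or with the sequences from DGCR8 and DICER1.
hsa-miR-205-5p: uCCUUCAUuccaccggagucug
hsa-miR-205-3p: gAUUUCAGuggagugaaguuc
hsa-miR-4435: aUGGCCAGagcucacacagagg
hsa-miR-3142: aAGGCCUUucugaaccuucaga
hsa-miR-146a-5p: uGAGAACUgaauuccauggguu
hsa-miR-146a-3p: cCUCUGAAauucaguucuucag

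Cell type markers were read to describe the cells. They were set against no reference profile of T24, so the identity of the line was not tested. All 6 epithelial genes were expressed, led by KRT7 (1040 and 983 CPM), with CDH1 higher (log2 fold change 0.16) and 4 lower, among them KRT8 (-0.29) and KRT19 (-0.15). Of 11 urothelial genes 7 were tested, and TP63 was higher (134 and 152 CPM) and 3 were lower, among them KRT5 (437 and 313 CPM), the most abundant, and GATA3 (13.6 and 9.37 CPM), while UPK1A was at 0 in all libraries and UPK1B (0.0116 and 0.0662 CPM), UPK3A (0.0172 and 0.0221 CPM) and KRT20 (0 and 0.011 CPM) were nearly so. Of 4 mesenchymal genes FN1 led (2430 and 2180 CPM), VIM was higher (15.6 and 25.4 CPM) and CDH2 and FN1 were lower. Of 5 fibroblast genes COL1A1 alone was called, and lower (34.9 and 31.5 CPM). Of the immune genes CD68 alone was called, at 6.74, 6.54 and 6.81 CPM under the siNC label and at 19.5, 17.7 and 19.0 CPM under the siFBXL6 label, while PTPRC was at 0.508 and 0.331 CPM and CD3E at 0.0216 and 0 CPM. The 4 endothelial genes summed to 2.84, 2.53 and 2.91 CPM against 3.87, 3.25 and 4.07 CPM, with PECAM1 alone called, and higher (0.573 and 1.39 CPM). Of the tested genes of these lists, 83.3% of the epithelial, 57.1% of the urothelial, 75% of the mesenchymal, 20% of the fibroblast, 25% of the immune and 25% of the endothelial ones were called, beside 40.2% of all tested genes and 59.6% of those reaching 10 CPM. The part of any of these markers in the differences of the silencing genes was not tested.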

How the data were processed

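The authors deposited read counts per gene symbol, not normalized, with exon coordinates on GRCh38. The submitters' processing notes name fastp 0.23.0, STAR and featureCounts (Subread 1.5.1), whereas the study's methods name Trimmomatic and HISAT2, so the trimmer and aligner behind these counts are uncertain. Annotation release and strand setting are not given in the sources used here. Genes were filtered with filterByExpr at its defaults, scaled with TMM and compared by label alone with the quasi-likelihood test of edgeR 4.0.16 (limma 3.58.1, R 4.3.3), with Benjamini-Hochberg adjustment over all 21298 tested genes. The code was tested on simulated data. CPM and RPKM used TMM-scaled library sizes, and log2 CPM a prior count of 0.5. Ratios and shares had exact two-sided permutation tests. Alternatives were DESeq2 1.42.0, other scalings and filters, a stricter threshold, the replicate block and each library left out. Totals ran from 56814946 to 60968158 counts, and variation from counting covers counting error only, not the spread between replicates. Members and lists were chosen with earlier results of these data known. Named genes were the 10 members, FBXL6, GAPDH, ACTB, the 3 called genes of each list with the smallest adjusted p, PIWI genes whose mean reached 1 CPM and the 5 genes most like AGO2, of which 1 is not reported here. The count ratios, the background of genes reaching 10 CPM and the windows before the Argonaute starts were added after seeing the data. TNRC6B and TNRC6C were named for the GW182 shares, and of the markers also the most abundant and those at or near 0, chosen after their values were seen. TENT4A could not be matched to the table.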

Additional observations from a re-analysis of the deposited data

How the results depend on the processing

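Of 140 values of the 10 silencing genes under 14 alternatives, 125 kept their direction and their side of the threshold, 6 lost the threshold, 4 gained it and 5 changed sign. AGO1, AGO2, DROSHA and TNRC6A kept both in all 14. The number of silencing genes that differed ran from 4 (without siFBXL6 replicate 2) to 7. AGO3 also missed the stricter threshold of 0.01. The uncalled DICER1 difference changed sign with upper-quartile scaling (-0.0043), with library size alone (-0.0067) and among the fits without a library, which ran from -0.0205 to 0.0382 (without siFBXL6 replicate 2, -0.0043). That of TARBP2 ran from -0.1189 to 0.0481 without a library. ACTB, at 0.0002, turned to -0.0192 with upper-quartile scaling, -0.0218 with library size alone, -0.0008 with no filter, and ran from -0.0176 to 0.0175 without a library. The AGO2 share differed by 8.41 percentage points with counts not divided by exon length. The cause of these changes was not tested. With the replicate number as a block, 8408 genes were called in place of 8569, of which 8356 were shared, and 6 of the 10 silencing genes, the same genes, were called. Deviations of same-numbered libraries correlated at -0.00445, -0.00197 and 0.00814 over all tested genes, so no strong shift shared by number was seen. Counting error of genes with few counts weighs on such values, which cannot tell whether same-numbered samples were set up together. Scaling by library size alone, which moved the median log2 fold change of all genes farthest, put it at -0.029 in place of -0.007. TARBP2 had the fewest counts of the 10 genes, 286 to 334 a library. Its siNC-labelled replicates varied by 11.6% (coefficient of variation), where counting alone gives 5.72%.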
